A study of Mus musculus with 8 samples.

Results

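The Zfp281 null ESC lines 7, 3.34 and 3.38 were compared with the heterozygous lines 5 and 3.1, which sets the loss of the last functional Zfp281 allele apart from the loss of the first. These 5 lines, chosen by the genotype in their labels, are all the null and heterozygous lines among the 8 profiled. The other 3 are the wild-type lines 3, 3.2 and 3.3, whose values are given beside the others where a level needs a reference. All lines came from blastocysts that heterozygous parents produced, and were grown without further treatment on a layer of primary mouse embryonic fibroblasts, in serum medium with LIF, the cytokine that keeps mouse ESCs self-renewing. In the mutant allele a floxed neomycin resistance cassette stands in place of both Zfp281 exons. The cassette can be removed by Cre, and the labels do not say which form a line carries, nor the strain background or sex of a line. Each line was hybridised to 1 Affymetrix mouse genome array, so that a replicate is an ESC line and the spread within a genotype contains differences between lines as well as technical error. With 3 lines against 2, the precision of every value is limited by the number of lines.

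Zfp281 is a Krüppel-like zinc finger protein that binds G-rich sequence in promoters and is a partner of Nanog, Oct4 and Sox2, the core transcription factors of ESCs. It is known both to repress and to activate genes in pluripotent cells, and embryos without it fail soon after implantation. Heterozygous cells retain a functional allele, so that a gene that needs little Zfp281 can differ between null and heterozygous cells while heterozygous and wild-type cells are alike, and a gene sensitive to dosage can differ at both steps.

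Zfp281 mRNA was lower in all 3 null lines than in both heterozygous lines. Heterozygous lines 5 and 3.1 had log2 values of 6.69 and 6.97, and null lines 7, 3.34 and 3.38 had 3.64, 5.06 and 5.23, against 6.72 to 7.93 in wild-type lines. The log2 fold change between null and heterozygous lines was −2.19 (standard error, SE, 0.50; limma adjusted p = 0.102). On the second Zfp281 probe set both heterozygous lines were at 6.74 and the null lines at 3.39, 2.96 and 2.94, a log2 fold change of −3.64 (SE 0.30, limma adjusted p = 0.0467 over all probe sets). Null lines overlapped neither heterozygous nor wild-type lines on either probe set, and each probe set was still called present in 2 of the 3 null lines. Heterozygous and wild-type lines overlapped on the first probe set, where their levels were close. On the second the heterozygous lines were below the wild-type lines, at 7.19 to 8.36. Of the 28 measured ESC markers in the list of pluripotency factors, all were called present in at least 1 null or heterozygous line, and both genotypes had high log2 values of Pou5f1, Sox2 and Nanog.

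The arrays of the null lines differed from all others in a measure of RNA quality. The 3′ minus 5′ log2 difference averaged over the Gapdh and beta-actin controls, which grows as RNA or cDNA gets shorter, was 2.68 to 3.71 in null, 4.49 and 4.80 in heterozygous and 4.23 to 4.86 in wild-type lines. The mean was 1.35 lower in null than in heterozygous lines, and an exact permutation test gave a two-sided p of 0.2, the smallest that 3 lines against 2 allow. Null lines had 32.9% to 35.3% of probe sets called present, and heterozygous lines 28.4% and 32.3%. Wild-type lines had 30.4% to 33.2%, which overlapped the null lines. Y-linked Eif2s3y, a translation initiation factor subunit, had log2 values of 5.67 to 6.13 in heterozygous line 3.1 and wild-type lines 3 and 3.2 and of 2.38 to 2.95 in the other lines, which include all 3 null lines. Of the 19 autosomes, none had a median difference between null and heterozygous lines outside −0.11 to 0.03 (log2), and the X chromosome had −0.08. The X chromosome differed more between lines. Its median difference from the mean of the other lines was 0.24 and −0.17 in heterozygous lines 5 and 3.1. In null lines 7, 3.34 and 3.38 it was −0.04, −0.23 and 0.15, and in wild-type lines 3, 3.2 and 3.3 −0.10, −0.03 and 0.21. For autosomes such line medians ran from −0.15 to 0.09.

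Of 18193 genes, 441 had means in null and heterozygous lines more than 2-fold apart, and most of these were higher in the null lines. There were 321 higher genes, 1.76% of all genes tested, and 120 lower genes, 0.66% of all. The higher genes made up 72.8% of the 441. In 309 of the 321 all null lines lay above both heterozygous lines, and in 101 of the 120 all lay below. Among all genes such a separation was found upwards in 13.3% and downwards in 14.5%. Past 4-fold there were 21 higher and 4 lower genes. In limma 0 genes reached an adjusted p under 0.05, the smallest being 0.0529, and 2512 had an unadjusted p under 0.05, of which 406 were among the 441. For this reason genes are described here as higher or lower and past 2-fold, with their errors. The genes just past the threshold were Spg21 (1.001) and Epb41l3 (−1.002), and those just short of it Mrpl10 (0.9968) and Tubb2a (−0.9988).

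The heterozygous lines differed from each other by more than 2-fold in 519 genes, 55 of them among the 441, and pairs of null lines in 174 to 395 genes. Without heterozygous line 5 the higher genes numbered 498 and the lower genes 261, and without heterozygous line 3.1 they numbered 343 and 182. Without null line 3.38 there were 366 higher and 201 lower genes. Where a heterozygous line was left out, the spread of the lone one was assumed to be that of the other genotypes. A fit of the 5 null and heterozygous arrays alone, which takes the spread from these lines only, passed 96 genes at an adjusted p under 0.05, 84 higher and 12 lower. With all arrays but wild-type line 3.2 limma passed 346 genes, and with all but wild-type line 3.3 it passed 121. When the 3′ minus 5′ difference entered the fit as a covariate, 182 genes were higher past 2-fold (46.8%) and 207 lower, and none passed the adjusted p. In that fit the log2 fold change of the deleted gene itself, Zfp281, was −0.40 (SE 0.62). The null lines lay below every other line in the difference, and the parts of genotype and RNA quality cannot be told apart.

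**Figure D1:**
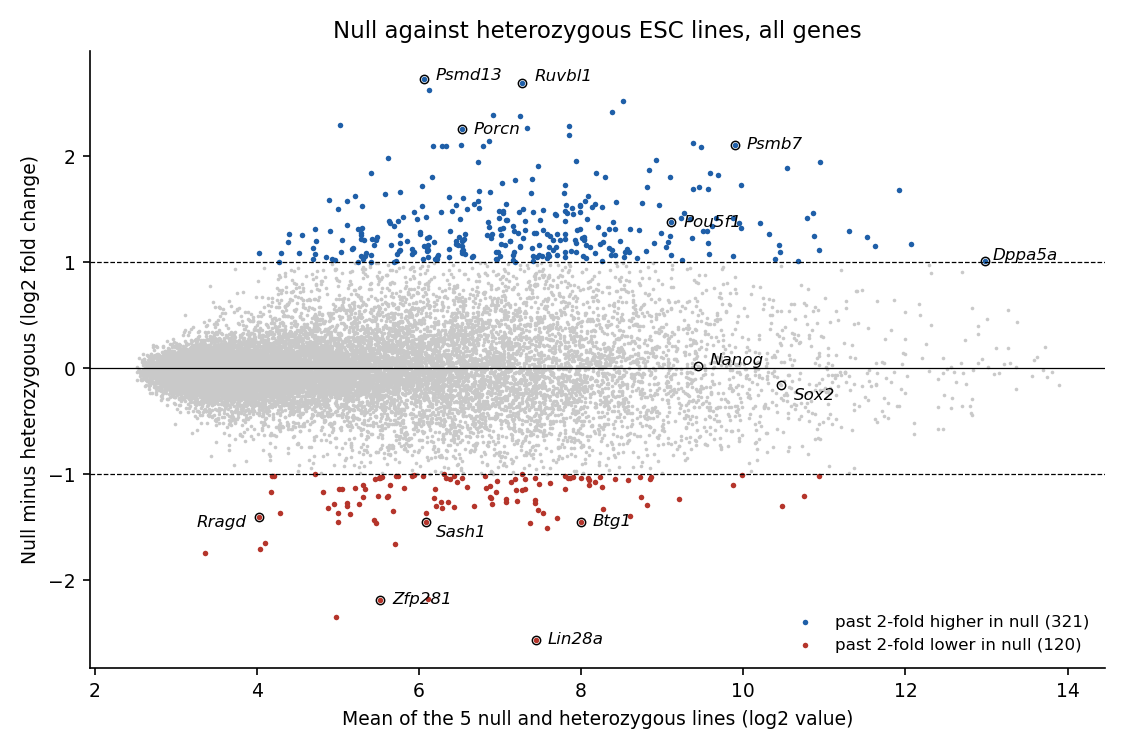
Log2 fold change between null and heterozygous ESC lines (vertical axis) against the mean log2 value over these 5 lines (horizontal axis), 1 point for each of 18193 genes, with dashed lines at 2-fold. The 321 blue points above outnumber the 120 red points below, and Nanog and Sox2 lie near 0.

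Most of the genes past 2-fold were called present in wild-type ESC lines too. Of the 321 higher genes, 75.7% were called present in every wild-type line, against 36.5% of all genes, and of the 120 lower genes 93.3% were. The median log2 level of the higher genes was 6.68, 6.28 and 7.09 in wild-type lines 3, 3.2 and 3.3. In the lines by which the genes were chosen heterozygous lines 5 and 3.1 had medians of 6.46 and 6.31, and null lines 7, 3.34 and 3.38 of 7.97, 7.78 and 7.65. The wild-type line with the highest median, line 3.3, was also the one with the lowest 3′ minus 5′ difference, 4.23. For the lower genes the wild-type medians were 6.90, 7.70 and 6.93, against 5.87 to 6.25 in null lines. Of the higher genes 1.87% and of the lower genes 5.83% were X-linked, against 3.39% of all genes.

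Among the 15 highest genes were Psmd13, Psmb7, Ube2s and Ubxn1 of the ubiquitin and proteasome system and the prefoldin gene Pfdn5. Psmd13, a lid subunit of the 26S proteasome, had log2 values of 4.28 and 4.56 in heterozygous lines 5 and 3.1 and of 7.76, 6.93 and 6.77 in null lines 7, 3.34 and 3.38. Null line 7 was the highest, and all null lines were above every heterozygous and wild-type line, the latter at 4.23 to 5.47. The log2 fold change was 2.73 (SE 0.38, limma adjusted p = 0.0566), or 6.64-fold. The 4 Psmd13 probe sets ran from 0.02, in a probe set called present in every null and heterozygous line, to 2.73, and gave 1.12 when averaged. Pfdn5, a subunit of the prefoldin chaperone, was at 3.79 and 5.29 in heterozygous lines 5 and 3.1 and at 7.27, 7.33 and 6.91 in the null lines, so that heterozygous line 5 lay far below line 3.1 and the null lines were close to one another. Its log2 fold change was 2.63 (SE 0.50). Ube2s, the ubiquitin-conjugating enzyme of the anaphase-promoting complex, was at 7.30 and 6.70 in heterozygous and at 10.59, 9.10 and 8.88 in null lines, where line 7 stood apart. Ubxn1, a ubiquitin-binding adaptor, and Psmb7, a catalytic subunit of the 20S proteasome, had log2 fold changes of 2.38 and 2.11. With the 3′ minus 5′ covariate the log2 fold change of Psmd13 was 1.46 and that of Ube2s 0.26.

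Also among the 15 highest were Ruvbl1, Exosc7, Prmt1, Rps4l, Tars and Kars, genes of translation, RNA processing and chromatin. Ruvbl1, an AAA+ ATPase of chromatin remodelling and of snoRNP assembly, was at 6.04 and 5.27 in heterozygous lines 5 and 3.1 and at 8.52, 8.58 and 7.94 in the null lines, a log2 fold change of 2.69 (SE 0.51). The wild-type lines ranged from 5.34 to 7.33, and line 3.3 was the highest of them. Exosc7, a subunit of the RNA exosome, was at 5.28 and 5.24 in heterozygous and at 7.46, 7.58 and 7.05 in null lines. Its lines were close together within each genotype, and its log2 fold change of 2.10 (SE 0.23, limma adjusted p = 0.0529) was 1.66 with the covariate. The threonyl- and lysyl-tRNA synthetase genes Tars and Kars had log2 fold changes of 2.29 and 2.20. Rps4l, a paralog of the ribosomal protein gene Rps4x, had 2.42, and Prmt1, the main arginine methyltransferase of cells, had 2.39.

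Metabolic enzymes and an enzyme of Wnt secretion completed the highest genes. Fdps, the farnesyl diphosphate synthase of the mevalonate pathway, was called present in all null lines and in no heterozygous line, and was at least 4.92-fold higher in the null lines, counting each heterozygous line at its own value or, where that is smaller, at the lowest value called present on its array. Its log2 values were 3.42 and 3.88 in heterozygous and 6.42, 5.70 and 5.73 in null lines. Glo1, the glyoxalase that removes methylglyoxal, was at 8.07 and 8.15 in heterozygous lines, at 10.41, 9.90 and 10.38 in null lines and at 8.45 to 9.69 in wild-type lines, so that the heterozygous lines were the lowest of the 3 genotypes. Its log2 fold changes were 2.12 (SE 0.32) for null against heterozygous and −0.95 for heterozygous against wild-type. Pmm1, a phosphomannomutase, was at 8.79 in null line 7 and at 7.39 and 6.97 in the other null lines, a log2 fold change of 2.14. Porcn, the acyltransferase that lipidates Wnt proteins for secretion, was at 5.64 and 4.71 in heterozygous lines 5 and 3.1 and at 7.48, 7.29 and 7.51 in the null lines. The 3 null lines were nearly equal, the heterozygous lines lay on either side of the wild-type range of 4.82 to 5.52, and the log2 fold change was 2.25 (SE 0.29, limma adjusted p = 0.0529). It was 1.56 with the covariate.

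Over the 15 highest genes the log2 fold changes ran from 2.10 to 2.73, with adjusted p between 0.0529 and 0.0947 in limma. Of their 28 probe sets 25 had the sign of the gene, probe sets near 0 included. The 28 hold the probe set by which each gene was chosen, which has this sign by construction. Heterozygous against wild-type they ran from −0.95 to 0.17 and null against wild-type from 1.17 to 2.58, values that share arrays with the first comparison. With the 3′ minus 5′ covariate the null against heterozygous values of the 15 genes ran from 0.26 (Ube2s) to 2.13 (Pfdn5). Rps4l, Ubxn1, Prmt1 and Pmm1 then had 0.91, 0.75, 0.68 and 0.57, short of 2-fold as Ube2s was. The others of the 15 stayed past 2-fold.

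The lower genes were more mixed. Btg1, an antiproliferative factor, had the smallest p of all genes in the comparison. Heterozygous lines 5 and 3.1 were at 8.79 and 8.94, and null lines 7, 3.34 and 3.38 at 7.40, 7.55 and 7.30. The null lines were well below the heterozygous lines and the wild-type lines at 8.44 to 8.75, and the difference on the log2 scale was −1.45 (SE 0.14, limma adjusted p = 0.0529), or −1.52 with the covariate. A second Btg1 probe set that was called present gave −0.59. Sash1, a scaffold of signalling pathways, was at 6.79 and 7.12 in heterozygous and at 5.36, 5.37 and 5.78 in null lines. It was called present in both heterozygous lines and in no null line, and was an estimated 2.73-fold lower there. Id2, an inhibitor of bHLH transcription factors and a BMP target, had a log2 fold change of −1.46 (SE 0.25), from 6.57 and 6.12 in heterozygous to 4.44, 5.34 and 4.87 in null lines. Fam13c was at 5.00 and 5.18 in heterozygous and at 3.73, 3.21 and 3.39 in null lines, a log2 fold change of −1.65 (SE 0.26).

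Rragd, a Rag GTPase that relays amino acid levels to mTORC1, was lower at each genotype. Wild-type lines 3, 3.2 and 3.3 had log2 values of 6.21, 6.92 and 6.58, heterozygous lines 5 and 3.1 had 4.93 and 4.81, and null lines 7, 3.34 and 3.38 had 3.47, 3.48 and 3.44. The 3 genotypes did not overlap. The log2 fold change was −1.40 (SE 0.19, limma adjusted p = 0.0540) between null and heterozygous and −1.70 (SE 0.19, limma adjusted p = 0.209) between heterozygous and wild-type lines. It was −1.51 between null and heterozygous lines with the covariate and −0.61 with its 3 probe sets averaged. Sh3bgrl, a small thioredoxin-fold protein, had −1.46 and −0.62 for these 2 steps, and Epop, an adaptor of Polycomb and elongin complexes, had 1.61 and 0.88 upwards. Epop was at 5.64 and 5.16 in heterozygous and at 8.05, 6.35 and 6.63 in null lines, and with the covariate its log2 fold change was −0.18. Gbp2, a guanylate binding protein of the interferon response, was at 5.93 to 6.51 in wild-type lines, at 4.70 and 3.99 in heterozygous and at 3.97 to 4.63 in null lines, with log2 fold changes of −1.93 for heterozygous against wild-type and 0.05 (SE 0.28) for null against heterozygous. Car4, a carbonic anhydrase, had −1.87 for heterozygous against wild-type lines, and was called present in 1 heterozygous and no null line, where a further decrease could not be measured. Gbp2 and Car4 were chosen after their values were seen.

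**Figure D2:**
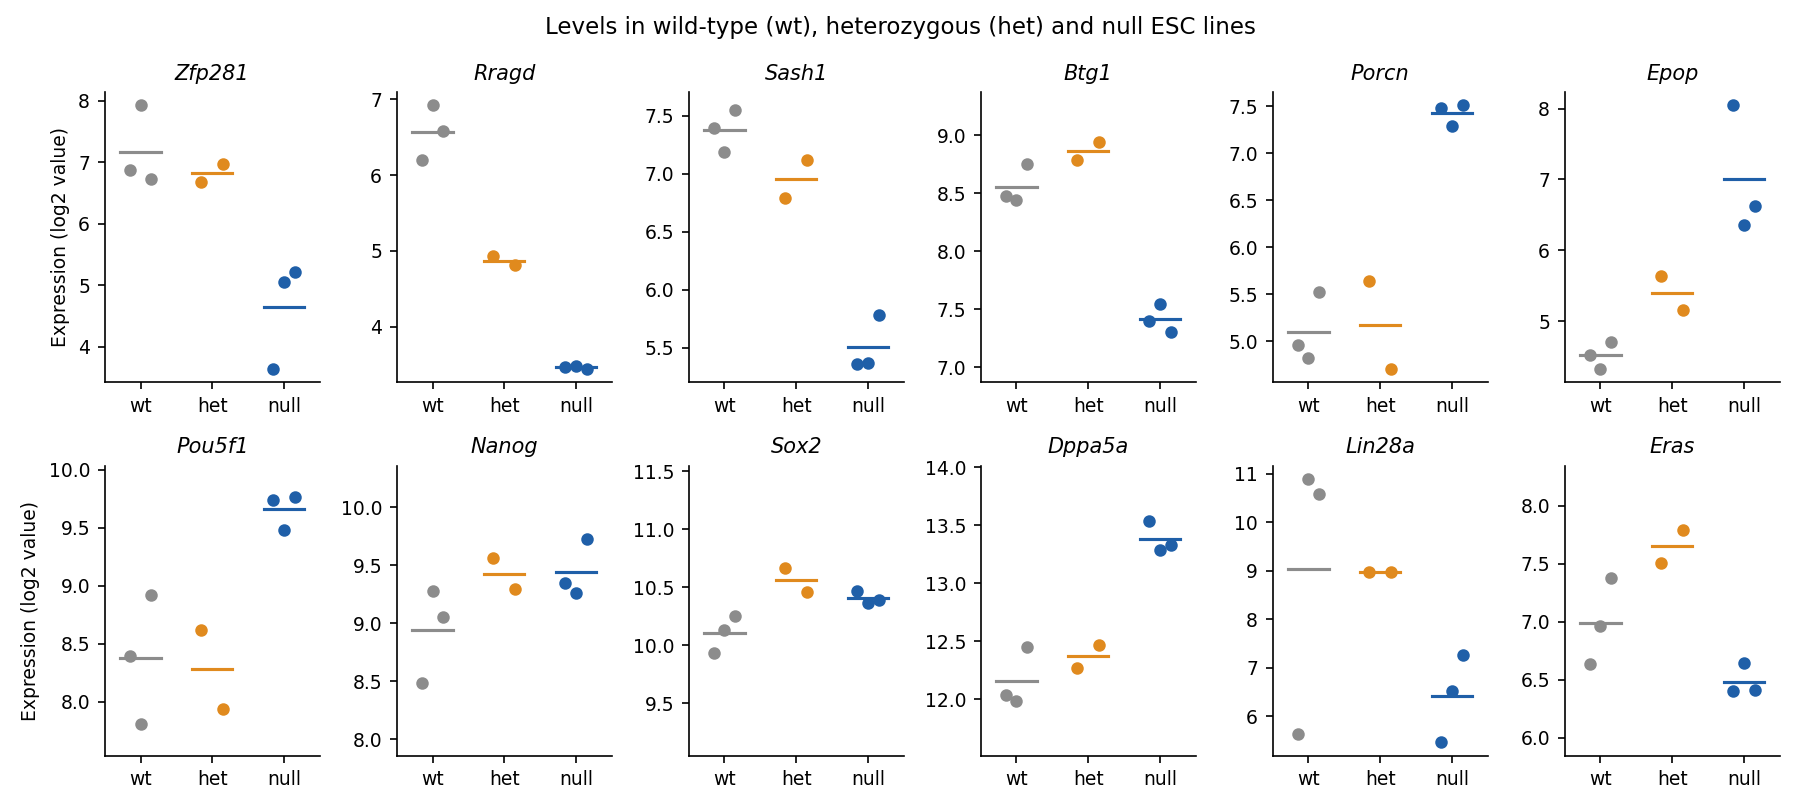
Log2 values of 12 genes in wild-type (grey), heterozygous (orange) and null (blue) ESC lines, 1 point for each line with a bar at the mean of a genotype. Each axis has its own range of log2 values, Rragd is lower at each genotype, Btg1, Porcn, Dppa5a and Pou5f1 do not overlap between null and heterozygous lines, and Nanog and Sox2 do not separate these 2 genotypes.

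Some of the lowest genes varied widely between lines. Lin28a, an RNA-binding protein that blocks let-7 maturation, was at 8.98 and 8.97 in heterozygous and at 5.46, 6.52 and 7.27 in null lines, a log2 fold change of −2.56, but wild-type line 3 was at 5.63 and wild-type lines 3.2 and 3.3 at 10.90 and 10.58, and the standard error was 1.38. On the other Lin28a probe set the wild-type lines were at 7.75 to 7.83, the heterozygous lines at 7.17 and 7.31 and the null lines at 6.33, 5.77 and 5.99. The 3 genotypes did not overlap on that probe set, where the log2 fold change between null and heterozygous lines was −1.21 (SE 0.16). Sycp3, a protein of the meiotic synaptonemal complex, was at 5.28 and 7.49 in heterozygous lines 5 and 3.1 and at 4.21, 3.44 and 4.47 in null lines. Ptgs2, the inducible cyclooxygenase, was at 5.94 and 7.45 in heterozygous lines and at 4.86 to 5.13 in null lines. In both genes heterozygous line 3.1 stood with wild-type line 3.2, at 7.34 and 7.35. Plagl1, an imprinted zinc finger gene, was at 8.40 and 6.43 in heterozygous and at 5.03, 4.62 and 6.08 in null lines. The membrane peptidase gene Mme, the cofilin gene Cfl2, the secreted Wnt antagonist gene Sfrp2 and the splicing factor gene Mbnl2 had log2 fold changes of −1.70, −1.46, −1.43 and −1.41. With the covariate those of Cfl2 and Mbnl2 were −0.07 and −0.20. Over the 15 lowest genes, Zfp281 among them, 34 of 40 probe sets had the sign of the gene, near 0 included. The 40 again hold the probe set by which each gene was chosen. In limma 14 of the 15 genes had an unadjusted p under 0.05, and the adjusted p ran from 0.0529 to 0.479.

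**Figure D3:**
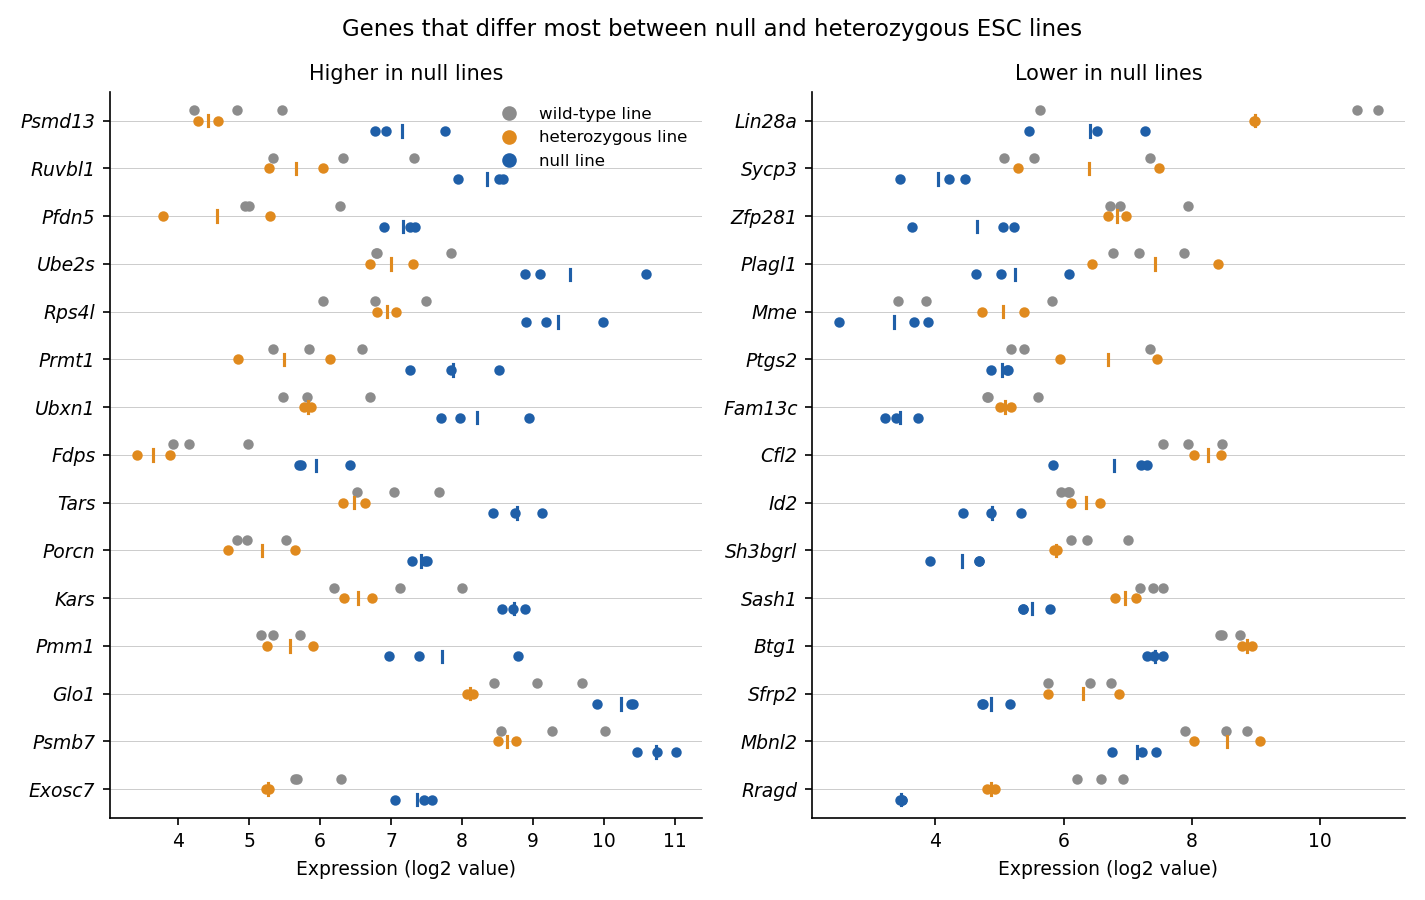
Log2 values of the 15 genes with the largest higher (left) and lower (right) differences between null and heterozygous ESC lines among those detected and not overlapping, 1 point for each line and a bar at the mean of the heterozygous (orange) and null (blue) lines. Wild-type lines are grey, and Lin28a in wild-type line 3 lies at 5.63, far from the other wild-type lines.

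A G-rich sequence, GGGGAGGGG, stands for the kind of site that Zfp281 is known to bind, and promoters were searched for it on both strands, overlapping matches included. RefSeq promoters (250 bases before to 50 after the start, GRCm38.p6) were at hand for 14368 of the 18193 genes, and 9.54% of these held it. It was found in 17 of 272 promoters of the higher genes (6.25%) and in 14 of 100 of the lower genes (14%). The shorter GGGAGGG was in 30.4% of all, 21.7% of the higher and 38% of the lower genes. Of the 15 highest genes 11 had a promoter and none of these held GGGGAGGGG, and 2 of the 15 lowest did, Lin28a and Mme. A match is a run of letters and no measured site. The 250 bases before the start are shown for the 2 highest genes and for Lin28a, 5′ to 3′ on the strand of the gene, with GGGGAGGGG in capitals, where 2 overlapping copies stand in Lin28a. The copy in Mme lies in the bases after the start. Psmd13 is on the plus strand at chr7:140882144-140882393, Ruvbl1 on the plus strand at chr6:88465159-88465408 and Lin28a on the minus strand at chr4:134018817-134019066.
Psmd13: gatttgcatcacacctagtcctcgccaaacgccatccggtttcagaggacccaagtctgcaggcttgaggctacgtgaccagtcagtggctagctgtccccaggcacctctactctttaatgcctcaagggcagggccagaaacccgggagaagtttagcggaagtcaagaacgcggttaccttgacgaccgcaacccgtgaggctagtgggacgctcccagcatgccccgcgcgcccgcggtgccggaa
Ruvbl1: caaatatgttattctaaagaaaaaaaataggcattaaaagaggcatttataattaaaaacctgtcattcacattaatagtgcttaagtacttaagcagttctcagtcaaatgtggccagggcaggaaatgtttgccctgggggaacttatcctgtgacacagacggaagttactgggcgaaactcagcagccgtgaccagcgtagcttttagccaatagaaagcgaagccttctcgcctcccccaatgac
Lin28a: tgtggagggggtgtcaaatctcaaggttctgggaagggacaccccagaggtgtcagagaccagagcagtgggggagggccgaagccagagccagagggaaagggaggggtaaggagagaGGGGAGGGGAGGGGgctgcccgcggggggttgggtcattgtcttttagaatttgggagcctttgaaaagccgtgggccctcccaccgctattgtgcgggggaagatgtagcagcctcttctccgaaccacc

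Of the genes that maintain pluripotency, Pou5f1 was higher in null lines and Nanog and Sox2 were not. Pou5f1, which encodes Oct4, was at 8.62 and 7.94 in heterozygous lines 5 and 3.1 and at 9.74, 9.48 and 9.77 in null lines 7, 3.34 and 3.38, with wild-type lines at 7.81 to 8.92. The null lines were above all other lines, and the log2 fold change was 1.38 (SE 0.32, limma adjusted p = 0.102), or 0.63 with the covariate. Nanog was at 9.56 and 9.29 in heterozygous and at 9.35, 9.26 and 9.73 in null lines, which overlapped, with a log2 fold change of 0.02 (SE 0.24). Its values of the other 2 comparisons were 0.49 for heterozygous and 0.50 for null against wild-type lines. Sox2 had −0.16 (SE 0.13) between null and heterozygous lines, 0.46 between heterozygous and wild-type and 0.30 between null and wild-type lines. Of the 28 measured pluripotency factors, 3 were higher and 2 lower past 2-fold (background 1.76% and 0.66% of all genes). All null lines were above both heterozygous lines in 8 (28.6%, against 13.3% of all genes). They were below both in 4 (14.3%, against 14.5% of all genes). The median log2 fold change of the list was 0.38 against −0.02 for all genes. Dppa5a, an RNA-binding ESC marker with many pseudogenes, was at 12.27 and 12.47 in heterozygous and at 13.54, 13.28 and 13.33 in null lines, a log2 fold change of 1.01 (SE 0.17). Zfp42, the Rex1 gene, had 1.06, but null line 7 was at 6.92 and null line 3.38 at 9.40, and its standard error was 0.83. Eras, a constitutively active Ras of ESCs, was at 7.51 and 7.79 in heterozygous and at 6.40, 6.65 and 6.41 in null lines, a log2 fold change of −1.16 (SE 0.21). Dppa4, a chromatin protein, Tdgf1, the Nodal co-receptor Cripto, and Gdf3, a TGF-beta family ligand, had 0.85, 0.72 and 0.70. The median of the list was −0.03 with the covariate and between 0.16 and 0.57 with any 1 line left out.

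Among 38 gene lists the proteasome had the highest median. Of 37 measured subunits and assembly factors 13 were higher past 2-fold and none lower, in 25 all null lines were above both heterozygous lines, and the median log2 fold change was 0.61. Background shares for these calls are 1.76% and 13.3% of all genes. The members past 2-fold came from the 20S core (Psma4, Psmb1, Psmb4, Psmb5, Psmb6, Psmb7), the 19S particle (Psmc3, Psmc5, Psmd2, Psmd8, Psmd13), the activator subunit Psme1 and the assembly factor Pomp. Psmb4 was at 8.61 and 8.48 in heterozygous and at 10.36, 10.23 and 10.11 in null lines, a log2 fold change of 1.69 (SE 0.28). Psme1 was at 6.22 and 5.96 in heterozygous lines and at 7.27, 7.35 and 7.42 in null lines, but wild-type lines were at 6.68 to 7.46, and its null against wild-type value was 0.29. For the mean log2 level of the list, heterozygous lines 5 and 3.1 had 8.18 and 7.99, wild-type lines 3, 3.2 and 3.3 had 8.25, 7.89 and 8.42, and null lines 7, 3.34 and 3.38 had 8.87, 8.77 and 8.74. With the covariate 4 members were higher past 2-fold and the median was 0.35, and with any 1 line left out the median lay between 0.46 and 0.86.

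Genes of ribosomes and of their assembly were also higher. Ribosome biogenesis factors, which process rRNA in the nucleolus, were higher past 2-fold in 8 of 36 and lower in none, with a median of 0.36, and all null lines were above both heterozygous lines in 22. Over all genes these shares are 1.76% higher, 0.66% lower and 13.3% with all null lines above, and the median is −0.02. Nolc1, a nucleolar phosphoprotein, was at 7.00 and 6.53 in heterozygous and at 8.66, 8.28 and 8.53 in null lines, a log2 fold change of 1.73 (SE 0.27). Nop16, a factor of large subunit assembly, was at 4.36 and 3.89 in heterozygous and at 5.55, 5.38 and 5.34 in null lines, a log2 fold change of 1.30 (SE 0.17, limma adjusted p = 0.0529). The null lines were close together in both genes. Mitochondrial ribosomal proteins were higher past 2-fold in 8 of 43, with a median of 0.49, and all null lines were above both heterozygous lines in 27. Of these Mrpl12, called present in all null lines and in no heterozygous line, was an estimated 4.29-fold higher, a log2 fold change of 2.10 (SE 0.39). Mrpl20 was at 6.85 and 6.46 in heterozygous and at 8.11, 7.78 and 7.89 in null lines, a log2 fold change of 1.28 (SE 0.17). Cytosolic ribosomal proteins were higher past 2-fold in 7 of 29, Rps4l, Rpl8, Rps14 and Rplp0 among them with 2.42, 1.95, 1.68 and 1.42, and their median was 0.41. Probe sets of ribosomal protein genes can also bind transcripts of their many pseudogenes. With the covariate none of the biogenesis factors, 2 mitochondrial and 2 cytosolic ribosomal proteins were higher past 2-fold, and the medians were 0.24, 0.23 and 0.27.

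Amino acid response and tRNA synthetase genes were higher past 2-fold in 8 of 28 (1.76% of all genes) and lower in none (0.66% of all genes). Their median was 0.57, and in 16 all null lines were above both heterozygous lines (13.3% of all genes). Besides Tars the 8 past 2-fold held the cysteinyl-, glycyl-, methionyl- and seryl-tRNA synthetase genes Cars, Gars, Mars1 and Sars. They also held the serine synthesis gene Psph, the aspartate aminotransferase gene Got1 and the amino acid transporter gene Slc7a5. Cars was at 6.22 and 6.48 in heterozygous and at 8.04, 7.80 and 7.63 in null lines, a log2 fold change of 1.48 (SE 0.17, limma adjusted p = 0.0529) that was 1.40 with the covariate. Its second probe set had the opposite sign. Lars, the leucyl-tRNA synthetase gene, had 0.97 (SE 0.15), and 0.97 with the covariate. In the list of Rag GTPase and mTORC1 genes, to which Rragd belongs, the members pointed both ways and the median was −0.06. Lamtor2, a subunit of the Ragulator that holds Rag GTPases at the lysosome, had 1.21. The kinase gene Mtor had 0.79, and Flcn, the folliculin gene that acts on Rag GTPases, −0.66. With all probe sets of a gene averaged, Lamtor2, Mtor and Flcn had 0.58, 0.10 and −0.25. The list median with the covariate was 0.25 for amino acid response and tRNA synthetase genes, and 2 of them were then higher past 2-fold.

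**Figure D4:**
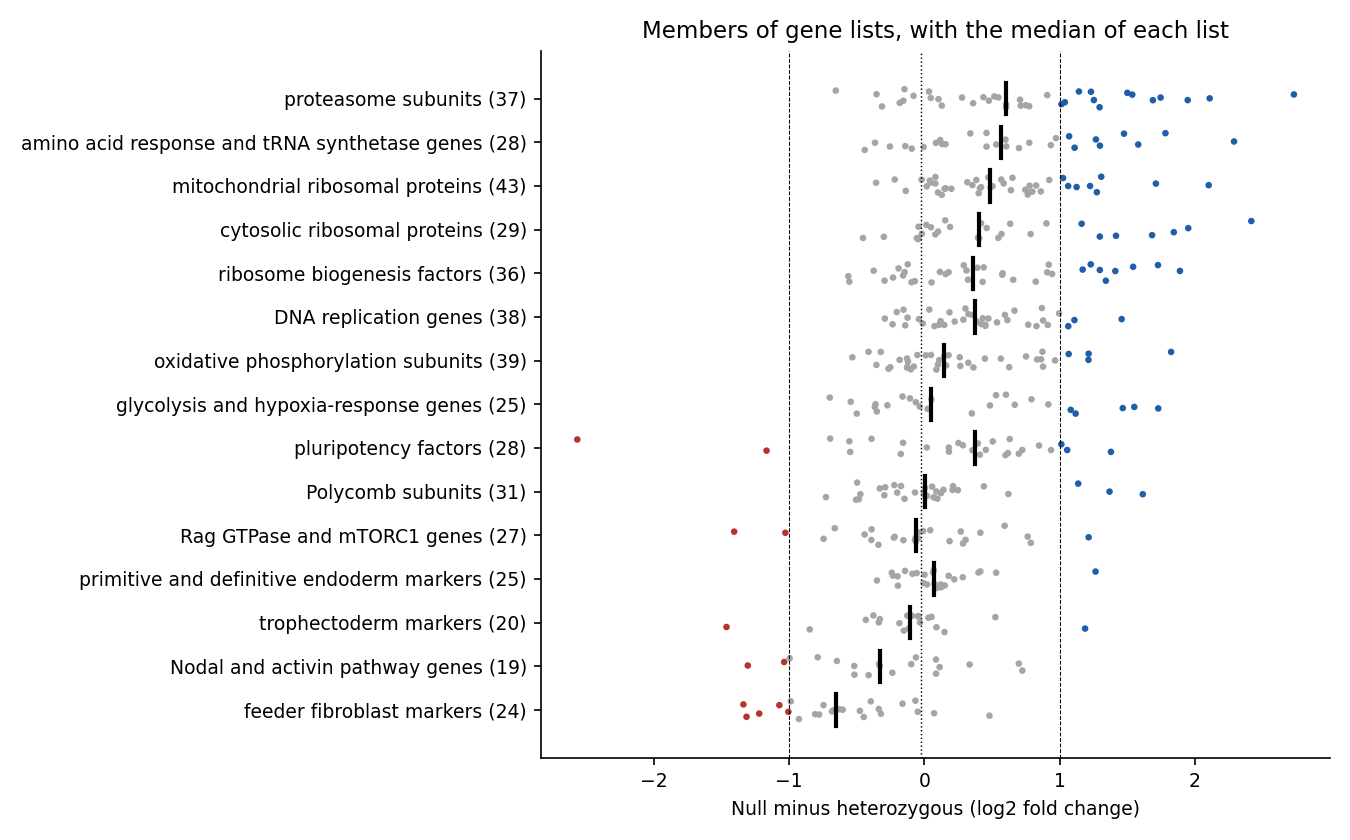
Log2 fold change between null and heterozygous ESC lines of the members of 15 gene lists, 1 point for each gene, with the number measured in brackets and a black bar at the median of the list. Points past 2-fold (dashed lines) are blue where higher and red where lower, and the dotted line is the median of all genes, −0.02.

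In the lists of DNA replication, oxidative phosphorylation and glycolysis the members past 2-fold were higher in null lines. Of 38 DNA replication genes 3 were higher past 2-fold (1.76% of all genes) and none lower, and in 15 all null lines were above both heterozygous lines (13.3% of all genes), with a median of 0.37. With the covariate none was higher past 2-fold, 1 was lower, and the median was 0.03. Rpa2, a subunit of the single-strand binding protein RPA, and Lig1, a DNA ligase, had log2 fold changes of 1.46 and 1.11, and with the covariate 0.39 and 0.29. The number past 2-fold was 0 without heterozygous line 3.1 and 7 without heterozygous line 5. Ccnd3, a D-type cyclin, was at 7.22 and 6.84 in heterozygous and at 8.92, 8.18 and 8.35 in null lines, a log2 fold change of 1.45 (SE 0.27), or 0.35 with the covariate. Of 39 oxidative phosphorylation subunits 4 were higher past 2-fold, Atp5b, the catalytic beta subunit of ATP synthase, with 1.82 among them, and the median was 0.15, or −0.06 on the signal values. Of 25 glycolysis and hypoxia-response genes 5 were higher past 2-fold and none lower, with a median of 0.05, or −0.05 after quantile normalization. In 9 of the 25 all null lines were above both heterozygous lines (36%), and in 6 all were below (24%, against 14.5% of all genes). For oxidative phosphorylation subunits these numbers were 14 (35.9%) and 6 (15.4%). Pfkp, a phosphofructokinase, was at 9.18 and 8.68 in heterozygous and at 10.57, 10.30 and 11.11 in null lines, a log2 fold change of 1.73 (SE 0.35), and Pkm, pyruvate kinase, had 1.47 (SE 0.24). Of 31 Polycomb subunits and partners 3 were higher past 2-fold, the PRC1 genes Phc1 and Cbx7 with 1.37 and 1.14 and Epop, and the median was 0.01. In Cbx7 and Ccnd3 1 of 3 probe sets had this sign.

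**Figure D5:**
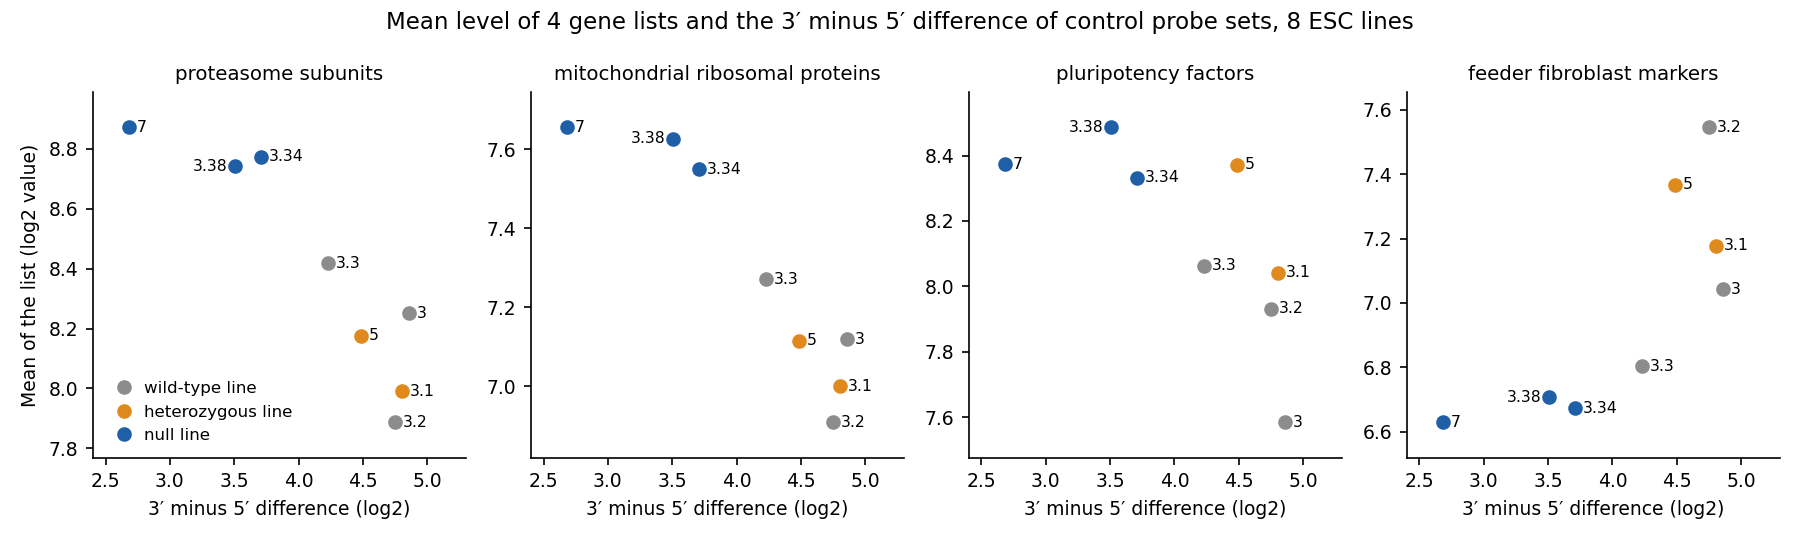
Mean log2 value of the members of 4 gene lists (vertical axis) against the 3′ minus 5′ log2 difference of the control probe sets (horizontal axis), 1 point for each of 8 ESC lines, named beside it and coloured by genotype. The null lines lie at 2.68 to 3.71 on the horizontal axis, left of the other lines, and are highest for proteasome subunits and lowest for feeder fibroblast markers.

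Lineage markers had medians near that of all genes. Of 25 primitive and definitive endoderm markers 1 was higher past 2-fold (4%, against 1.76% of all genes). This was Cubn, the visceral endoderm receptor cubilin, at 4.06, 5.69 and 4.97 in null and at 3.56 and 3.72 in heterozygous lines, which was called present in 1 null line and in no other line. The endoderm factor genes Gata6, Gata4 and Sox17 had overlapping lines, with a log2 fold change of 0.40 (SE 0.29) for Gata6 and of 0.00 (SE 0.24) for Gata4. The trophectoderm factor gene Cdx2 (0.09) and the epiblast gene Fgf5 (0.20) overlapped as well, and Cdx2 was called present in no line. The list medians were 0.07 for endoderm, −0.10 for trophectoderm, −0.12 for mesoderm and ectoderm markers and −0.05 for formative and primed epiblast genes. Of 20 trophectoderm markers Krt19 (1.19) was higher and Id2 lower past 2-fold. None of 19 mesoderm and ectoderm markers was past 2-fold, but in 6 all null lines were below both heterozygous lines (31.6%, against 14.5% of all genes). Only 7 of these 19 were called present in a null or heterozygous line. Of 19 epiblast genes 2 were higher and 1, Dusp6, lower past 2-fold (10.5% and 5.26%). In the last list Etv4, an ETS factor of FGF signalling, was at 5.56 and 5.33 in heterozygous and at 6.38, 6.83 and 6.42 in null lines, a log2 fold change of 1.10 (SE 0.19), or 1.56 with the covariate, but was called present in 1 heterozygous and 1 null line only, and Otx2, chosen after its values were seen, had 1.05 (SE 0.49). The Wnt effector gene Tcf7l1, a repressor of pluripotency genes, was at 8.76 and 8.70 in heterozygous and at 7.56, 7.97 and 7.51 in null lines, a log2 fold change of −1.05 (SE 0.23).

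Of 19 Nodal and activin pathway genes 2 were lower past 2-fold (0.66% of all genes) and none higher, with a median of −0.33. The lower genes numbered 0 without null line 3.34 and 3 without null line 3.38, and the median ran from −0.45 to −0.19 with 1 line left out and was −0.11 with averaged probe sets. The pair past 2-fold, chosen after their values were seen, were the Nodal antagonist genes Lefty1 and Lefty2. Lefty1 was at 7.62 and 8.50 in heterozygous and at 7.49, 6.40 and 7.18 in null lines, and Lefty2 at 7.99 and 6.93 in heterozygous and at 6.29, 5.07 and 7.12 in null lines, where line 3.38 overlapped. Their log2 fold changes were −1.03 (SE 0.48) and −1.30 (SE 0.57). The activin receptor gene Acvr2a had −0.79 and the convertase gene Furin −0.52, while Gdf3 and Tdgf1 were higher. Lamp2, a lysosomal membrane protein gene, had −0.84 (SE 0.16), or −1.16 with the covariate. The 21 lysosome genes had a median of 0.30, or −0.18 with the covariate. Of these 21, 2 were higher past 2-fold (9.52%, against 1.76% of all genes). B2m, the light chain of MHC class I, was at 9.59 and 9.29 in heterozygous and at 7.84, 7.86 and 8.45 in null lines, a log2 fold change of −1.39 (SE 0.33). Hs6st2, a heparan sulfate sulfotransferase gene, had −1.28 (SE 0.27).

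Markers of the feeder fibroblasts on which the lines grew were lower in null lines as a list. Of 24 measured, 5 were lower past 2-fold (0.66% of all genes) and none higher, in 13 all null lines were below both heterozygous lines (14.5% of all genes), and the median log2 fold change was −0.65. For their mean log2 level, heterozygous lines 5 and 3.1 had 7.37 and 7.18, wild-type lines 3, 3.2 and 3.3 had 7.04, 7.55 and 6.80, and null lines 7, 3.34 and 3.38 had 6.63, 6.67 and 6.71, and 23 of the 24 were called present in at least 1 null or heterozygous line. Col5a2, a fibrillar collagen chain, was at 7.90 and 7.30 in heterozygous and at 6.12, 6.42 and 6.62 in null lines, a log2 fold change of −1.22 (SE 0.34). Lox, which crosslinks collagen, had −1.34, Col3a1, another collagen chain, −1.31, and the matricellular gene Ccn1 −1.07, and the vimentin gene Vim was the other one past 2-fold, with null lines at 9.57 to 9.59. In RNA of whole cultures fewer feeder cells and less RNA per cell cannot be told apart. With the covariate 2 markers were lower past 2-fold and the median was −0.30, and after averaging all probe sets of a gene none was and the median was −0.49. Their part in the lower genes was not tested.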

How the data were processed

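RNA of 8 ESC lines was measured on 1 Affymetrix mouse genome array each. The authors deposited log2 values from RMA, which corrects background, normalizes by quantiles and summarises probes, and a table for each array with a signal and a detection p-value for each probe set. The deposited signal values have an unstated scaling and were used as an alternative only. The deposited p-value belongs to the present call, and a gene counted as present where the call was P. The submitters' processing notes name RMA and limma, with versions not given in the sources used here.

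Of 45101 probe sets 64 controls were left out, and 34945 had 1 gene in the platform annotation, 932 several and 9160 none. Of those with 1 gene 34741 matched a RefSeq entry by Entrez identifier. Each gene took its probe set of highest mean value (8 arrays), which left 18193 genes. All 8 arrays were fitted together with 1 mean for each genotype in limma 3.58.1 (lmFit and eBayes, R 4.3.3), which was tested on simulated data, with p-values adjusted by Benjamini-Hochberg over all genes. A gene was past 2-fold at a log2 fold change over 1. The covariate is the mean 3′ minus 5′ difference over Gapdh and beta-actin controls. Exact permutation tests used scipy 1.17.1, and tables and figures Python 3.11.15, pandas 2.3.3 and matplotlib 3.10.9.

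The comparison and the 38 gene lists were chosen with earlier results of these data known. The genes named are Zfp281, the 15 highest and 15 lowest among genes past 2-fold, not overlapping and called present in every line of a genotype, the 10 with the smallest p, up to 4 of each list by p, genes the study names, and the Oct4, Sox2 and Nanog core. Members listed past 2-fold beyond these are named to complete a count. Alternatives were probe set choice, detection, arrays in the fit, scaling, an intensity trend, sex chromosomes, the covariate, the lines with names beginning with 3., each line left out and, chosen after seeing the data, litter as a random block.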

Additional observations from a re-analysis of the deposited data

How the results depend on the processing

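The 441 genes past 2-fold became 252 with the probe sets of a gene averaged, 911 with each probe set on its own, 673 with only the lines whose names begin with 3. and 363 to 759 with 1 line left out, 759 being without heterozygous line 5. The 321 higher genes became 698 with each probe set on its own, 182 with the 3′ minus 5′ covariate and 274 to 498 with 1 line left out. The 120 lower genes became 36 with averaged probe sets, 213 with each probe set on its own, 199 on the signal values, 207 with the covariate, 224 with only the lines whose names begin with 3. and 89 to 261 with 1 line left out. The share of higher genes was 85.7% with averaged probe sets, 57.5% on the signal values and 46.8% with the covariate. Genes at an adjusted p under 0.05 in limma numbered 0 with all arrays, 20 with averaged probe sets, 5 probe sets on their own, 155 among genes called present, 96 with null and heterozygous arrays alone, 2 on the signal values, 36 with an intensity trend, 17 without X- and Y-linked genes and 0 to 346 with 1 line left out, 346 being without wild-type line 3.2. Zfp281 was at −2.91 with averaged probe sets (adjusted p = 0.0430 from limma) and at −0.40 with the covariate. The covariate turned the direction of Epop (−0.18), Dusp6 (0.47), Igf2 (1.15) and Eif2s3y (1.43). The cause of these shifts was not tested. Of 84 named genes past 2-fold, 80 had their direction with the covariate and all 84 with averaged probe sets and with any 1 line left out. Of the 84, 42 and 51 were past 2-fold with the covariate and with averaged probe sets. Most of these genes were chosen by fold change or p in this same comparison, many with lines that do not overlap. Their direction with 1 line left out was therefore largely fixed in advance, and leaving out a wild-type line cannot change it. No paired analysis was possible between null and heterozygous lines because no source used here ties a heterozygous line to a null line. The study ties null line 7 to wild-type line 3 and null line 3.38 to wild-type line 3.3 by litter, and with litter as a random replicate block, chosen after seeing the data, 429 genes were past 2-fold (316 higher, 113 lower), 0 passed the adjusted p in limma (2475 at an unadjusted p under 0.05), and Zfp281 was at −2.16. Probe sets near background have values set largely by noise, and a fold change there can understate or otherwise misstate a difference.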

Other observations

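Other lists held small numbers of genes past 2-fold between null and heterozygous lines. In some of them the share was above that of all genes, 1.76% higher and 0.66% lower. The median log2 fold change was 0.33 over 24 cholesterol and fatty acid synthesis genes, of which 2 were higher past 2-fold. Without heterozygous line 5 it was 0.78 with 8 higher, and without heterozygous line 3.1 it was 0.06 with 1 higher. It was −0.28 over 19 heparan sulfate genes, of which 1 was lower, and −0.35 to −0.03 with 1 line left out. Of 24 heat shock and chaperone genes 3 were higher (12.5%) and 1 lower (4.17%) past 2-fold, with a median of 0.08. None of 20 NuRD and NODE repressor subunits, which are partners of Zfp281 and Nanog, and none of 22 apoptosis regulators or 14 Myc and Max network genes was past 2-fold, with medians of −0.07, −0.02 and 0.05. Cell cycle regulators had a median of 0.18 (27 genes, 1 higher past 2-fold), interferon and antiviral genes 0.03 (24 genes, 1 lower), or −0.19 on the signal values, and imprinted genes −0.08 (28 genes, 2 lower), or 0.14 with the 3′ minus 5′ covariate. Igf2 and Dusp6, a growth factor and an ERK phosphatase chosen after their values were seen, had log2 fold changes of −1.04 and −1.15 with overlapping lines.

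Other genes of the comparison with the smallest p were higher in all 3 null lines. They were the amidoxime reductase gene Mtarc2 (1.66), the RNase P subunit gene Pop5 (1.72), the ribosome factor gene Wdr74 (1.45), the mitochondrial complex I assembly gene Ecsit (1.34) and the RNA polymerase III factor gene Gtf3a (1.17), each with an adjusted p of 0.0529 from limma. The epithelial adhesion gene Epcam had 1.37 and the desmosomal cadherin gene Dsg2 −1.28.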
